A study of Mus musculus with 28 samples.

Results

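Histone lactylation is written and erased by enzymes better known for acetylation, and 10 of them were followed here: the acyltransferases Ep300, Crebbp, Kat2a and Kat5 as writers, the zinc-dependent deacylases Hdac1, Hdac2 and Hdac3, and the NAD-dependent deacylases Sirt1, Sirt2 and Sirt3. They were taken by symbol, as enzymes reported to add or remove this mark, from a table of 25301 genes, and all 10 were found. The table holds RNA-seq of pancreatic macrophages, sorted by flow cytometry from C57BL/6J animals of wild-type genotype. Caerulein, an analogue of cholecystokinin that overstimulates the acinar cells and inflames the pancreas, was used to induce a model of acute pancreatitis (AP) with recovery. The 28 libraries form 6 groups: NC (3 libraries, a name that the labels do not spell out), D0 (5), the PBS groups D1 AP+PBS (6) and D3 AP+PBS (4), and the lactate groups D1 AP+Lac (6) and D3 AP+Lac (4). D0, D1 and D3 are days 0, 1 and 3 of that model. For the age and sex of the mice, the doses and the sorting markers, nothing is stated in the sources used here. Nor do the sources say that each library is a separate animal, so p-values measure the spread between libraries.

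Lactylation is the attachment of a lactyl group to a lysine. It was first described on histones, including in macrophages, where lactate made by glycolysis is one source of the group. Ep300 (p300) and its paralogue Crebbp (CBP) are large coactivators with an acyltransferase domain; Kat2a (GCN5) is the catalytic subunit of SAGA and Kat5 (Tip60) that of NuA4, both of them multi-subunit chromatin complexes. Hdac1 and Hdac2 work in the Sin3, NuRD and CoREST complexes and Hdac3 in the NCoR/SMRT complex. Sirt1 is mainly nuclear, Sirt2 mainly cytoplasmic and Sirt3 mitochondrial, and all use NAD as a cosubstrate. The values below are RNA levels; lactylation itself was not analysed here.

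The values are FPKM, fragments scaled to transcript length and library size, so levels can be compared between genes. All defining macrophage markers were present: Adgre1 was between 114 and 434 FPKM, Csf1r between 221 and 890 and Cd68 between 189 and 1071 over the libraries. Whole fragments recovered from the steps of the FPKM gave 33273246 to 41060443 per library. Log2 fold changes below are on the log2(FPKM + 1) scale from limma, with p-values adjusted by Benjamini-Hochberg over 11960 genes and called at 0.05. That scale understates the change of low genes such as Sirt3.

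The promoters of Kat2a, Sirt1, Sirt2 and Sirt3 are shown because these genes carried most of the differences between groups. RefSeq (GRCm38.p6) start sites matched 8 of the 10 genes. Each line holds the 250 bases before a start site, 5′ to 3′ on the gene's strand, and capitals mark 5 motifs searched on both strands: GGGCGG (GC box), CCGGAAG (ETS), CCAAT (the CCAAT box), TGACG (part of the cAMP response element) and CACGTG (E-box). The windows lie at chr11:100712468-100712717 (minus strand) for Kat2a, chr10:63339036-63339285 (minus) for Sirt1, chr7:28766502-28766751 (plus) for Sirt2, and chr7:140882310-140882559 and chr7:140881870-140882119 (both minus) for Sirt3.
Kat2a: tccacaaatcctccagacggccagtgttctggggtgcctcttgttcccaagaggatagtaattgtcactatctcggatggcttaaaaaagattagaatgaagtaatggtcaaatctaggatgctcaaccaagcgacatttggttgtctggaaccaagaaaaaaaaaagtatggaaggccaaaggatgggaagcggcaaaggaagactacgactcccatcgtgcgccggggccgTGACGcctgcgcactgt
Sirt1: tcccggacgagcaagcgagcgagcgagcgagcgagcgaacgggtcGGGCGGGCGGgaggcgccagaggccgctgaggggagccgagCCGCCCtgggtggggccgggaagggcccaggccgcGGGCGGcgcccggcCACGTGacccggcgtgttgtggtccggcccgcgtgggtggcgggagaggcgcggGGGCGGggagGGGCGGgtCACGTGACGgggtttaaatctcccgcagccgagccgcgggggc
Sirt2: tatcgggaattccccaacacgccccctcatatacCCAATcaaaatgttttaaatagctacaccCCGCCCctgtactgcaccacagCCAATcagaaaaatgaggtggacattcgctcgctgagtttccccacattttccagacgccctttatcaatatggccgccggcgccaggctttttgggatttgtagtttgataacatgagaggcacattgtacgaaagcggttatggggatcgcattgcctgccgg
Sirt3, first start: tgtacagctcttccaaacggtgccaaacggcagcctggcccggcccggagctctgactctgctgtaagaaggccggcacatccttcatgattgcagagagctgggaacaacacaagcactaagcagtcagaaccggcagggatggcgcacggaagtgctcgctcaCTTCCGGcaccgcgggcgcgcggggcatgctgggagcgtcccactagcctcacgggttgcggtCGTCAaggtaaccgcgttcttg
Sirt3, second start: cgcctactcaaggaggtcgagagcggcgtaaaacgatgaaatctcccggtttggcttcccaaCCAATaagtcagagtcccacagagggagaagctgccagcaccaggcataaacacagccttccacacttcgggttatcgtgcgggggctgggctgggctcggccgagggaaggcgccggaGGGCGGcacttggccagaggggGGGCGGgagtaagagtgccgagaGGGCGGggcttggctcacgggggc
The Sirt1 window held 6 GC boxes, with a pair overlapping, and 2 E-boxes, one of which overlaps TGACG. The Kat2a window held no GC box and 1 TGACG. Over all 32851 windows of this length, a GC box was in 32.7%, CCAAT in 33.8%, TGACG in 17.8%, the ETS letters in 6.91% and the E-box in 6.02%. CG dinucleotides numbered 39 in the Sirt1 window, 21 and 18 in those of Sirt3, 13 in that of Sirt2 and 11 in that of Kat2a, against a median of 6 over all windows. Matches of letters describe the windows and were not tied to the levels below.

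All 10 genes were detected in every library. Hdac1 stood highest, at 40.8 to 87.7 FPKM with a median of 56.4. Sirt2 (median 31.0), Hdac3 (23.4), Ep300 (21.4), Hdac2 (21.1) and Kat2a (17.6) followed, then Kat5 (11.3), Sirt1 (8.71), Crebbp (7.99) and Sirt3 (5.74). Sirt3 rested on 133 to 507 fragments per library, so its counting error alone reached 8.67%; for the other genes it was at most 3.63%. A processed copy of Hdac1 (Hdac1-ps) could share reads with it, and its own row is not in the table, so the Hdac1 level is uncertain to that extent. Sirt3 overlaps Ric8a (median 26.6 FPKM) in the RefSeq annotation, and use of strand in the counting is not given in the sources used here.

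**Figure D1:**
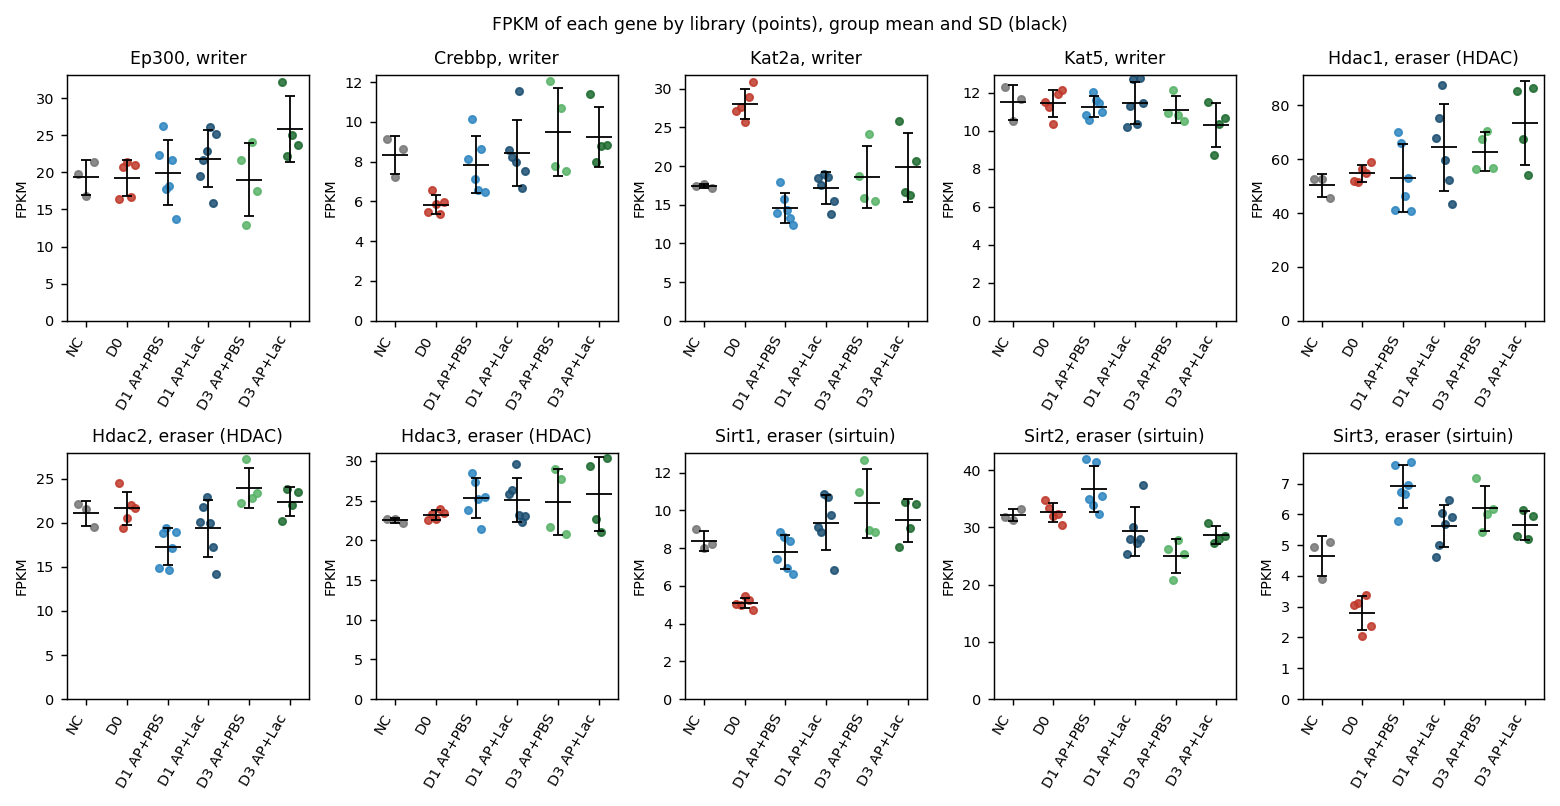
FPKM (vertical axes, from 0) of each of the 10 genes in the 28 libraries (points) by group, with the group mean and SD in black. Kat2a is high and Sirt1 and Sirt3 are low in D0, Sirt2 falls from D1 AP+PBS to D3 AP+PBS, and Kat5 lies between 8.72 and 12.8 FPKM throughout.

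By the moderated F test of limma, 6 of the 10 genes differed among the 6 groups, beside 83.3% of all genes tested. They were Crebbp, Kat2a, Hdac2 and all 3 sirtuins. The highest group mean was 2.47 times the lowest for Sirt3, 2.04 times for Sirt1, 1.92 times for Kat2a and 1.63 times for Crebbp. Ep300 (adjusted p = 0.18), Kat5 (0.49), Hdac1 (0.082) and Hdac3 (0.62) did not pass, and for Kat5 that ratio was 1.11. Hdac1 passed in several alternatives, with quantile normalization at 0.047, and Kat5 passed with quantile normalization (0.0055) and median-ratio scaling (0.0013), whereas Crebbp was lost in both (0.48 and 0.19). With a marker level as a covariate, Sirt1 was lost for lymphocyte markers (0.39), Sirt2 for macrophage markers (0.098), and Crebbp for lymphocyte (0.89), cell cycle (0.38) and macrophage genes (0.097). Hdac1 was gained for each of these 3 levels (0.00033, 0.00036 and 0.0016), and Hdac3 for cell cycle genes (0.014). The lymphocyte and cell cycle levels themselves differed between groups and were lowest in D0.

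At D0 the writers and erasers did not move as a block. Kat2a was higher than in NC, Crebbp, Sirt1 and Sirt3 were lower, and the other 6 did not pass the test. That is 1 of 10 higher, beside 19.7% of all genes, and 3 of 10 lower, beside 41.4%. The median change of the 10 was 0.01 on the log2 scale and that of all genes -0.22. The scaling matters here: the median of all genes moved from -0.22 to -0.04 with median-ratio scaling and to 0.06 with quantile normalization, and the share of calls that were higher moved from 32.3% to 48.2% and 56.4%.

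Kat2a had 17.4, 17.7 and 17.2 FPKM in NC and 27.1, 27.6, 25.7, 28.9 and 30.9 in D0. Every D0 library lay above every NC library. The log2 fold change was 0.65 (SE 0.14, adjusted p = 0.00035), which is 0.87 above the median of all genes, and Kat2a was called higher in all 20 alternatives. Kat2a fell back to a lowest, median and highest of 12.3, 14.1 and 17.9 FPKM in D1 AP+PBS, again without overlap with D0, a log2 change of -0.90 (SE 0.12, adjusted p = 5.5e-07). In D3 AP+PBS it had 18.7, 15.9, 24.2 and 15.5 FPKM, and the difference from D1 AP+PBS missed the threshold (0.32, adjusted p = 0.051). It was called in 6 of 22 alternatives, for example without the second D1 AP+PBS library (0.37, adjusted p = 0.023).

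Sirt1 was lowest at D0. It had 8.999, 8.001 and 8.20 FPKM in NC and 5.06, 4.98, 5.47, 5.23 and 4.73 in D0, with no overlap. The log2 fold change was -0.62 (SE 0.12, adjusted p = 0.00013), 0.41 below the median of all genes. In D1 AP+PBS its lowest, median and highest values were 6.65, 7.89 and 8.83 FPKM, all above D0, a rise of 0.52 (SE 0.10, adjusted p = 0.00011). In D3 AP+PBS the values were 10.99, 12.7, 8.98 and 8.85, above all of D1 AP+PBS, a rise of 0.36 (SE 0.11, adjusted p = 0.013). Without the D3 AP+PBS library at 12.7 that rise was 0.27 and lost its call (adjusted p = 0.075).

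Sirt3 was the lowest of the 10 genes and the one whose group means spread most. In NC it had 4.93, 3.89 and 5.08 FPKM, and in D0 3.07, 3.12, 2.04, 3.36 and 2.38. The groups did not overlap, and the log2 fold change was -0.58 (SE 0.12, adjusted p = 0.00020). Quantile normalization left -0.12 of it and no call (adjusted p = 0.50). D1 AP+PBS ran from 5.78 through a median of 6.83 to 7.71 FPKM, above every NC and D0 library. Against D0 the rise was 1.07 (SE 0.10, adjusted p = 2.5e-09) and held in all 23 alternatives; against NC it was 0.49 (SE 0.11, adjusted p = 0.0040).

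Crebbp had 9.12, 7.24 and 8.64 FPKM in NC and 5.45, 6.59, 5.85, 5.38 and 5.96 in D0, without overlap. Its log2 fold change was -0.44 (SE 0.15, adjusted p = 0.015), and the call was lost with quantile normalization (-0.16) and median-ratio scaling (-0.25), and without the first NC library (-0.38, adjusted p = 0.075) or the third (-0.42, adjusted p = 0.054). Ep300, its paralogue, had 16.8 to 21.4 FPKM in NC and 16.5 to 21.5 in D0, a log2 difference of -0.01 (95% interval -0.39 to 0.38). From D0 to D1 AP+PBS Crebbp rose by 0.36 (adjusted p = 0.017), with overlapping ranges; both scalings again ended that call, as did leaving out the second D1 AP+PBS library (0.29, adjusted p = 0.053). Kat5 had 10.51 to 12.3 FPKM in NC and 10.3 to 12.2 in D0.

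None of the zinc-dependent erasers was called at D0 as fitted. Hdac2 had 19.5 to 22.1 FPKM in NC and 19.4 to 24.5 in D0; Hdac3 had 22.1 to 22.7 and 22.5 to 24.0; Hdac1 had 45.4 to 52.7 and 51.5 to 59.0. With median-ratio scaling Hdac2 (0.25, adjusted p = 0.037) and Hdac3 (0.26, adjusted p = 0.019) were called higher, and Crebbp no longer lower. Covariates also added calls: the D0 difference of Hdac1, 0.12 as fitted, was 1.02 (adjusted p = 8.5e-05) with lymphocyte markers, 0.93 (0.00019) with cell cycle genes and 0.24 (0.035) with macrophage markers. That of Hdac2 was 0.46 (0.016) with lymphocyte markers, and that of Hdac3 0.52 (0.00098) with cell cycle genes. The cell cycle level was 1.64 to 1.98 in D0 and 3.66 to 3.79 in NC, and lymphocyte levels did not overlap either. For these levels, the adjusted D0 differences extend slopes fitted within the groups across that gap, and cannot separate group from level. Sirt2, at 31.2 to 33.3 FPKM in NC and 30.4 to 34.9 in D0, differed by 0.02 (95% interval -0.20 to 0.24).

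Cell cycle genes and markers of other cell types moved with the D0 results. The cell cycle list had a mean log2(FPKM + 1) of 3.71 ± 0.07 (SD, n = 3) in NC and 1.78 ± 0.13 (n = 5) in D0, and 30 of 31 fell. The 10 monocyte markers all rose, with summed levels of 811 to 1404 FPKM in NC and 4755 to 6114 in D0. Summed acinar markers were 6389 to 10202 FPKM and then 420 to 797, with 15 of 16 lower; B and plasma cell markers 469 to 566 and then 21.0 to 75.2, with 10 of 10 lower; T and NK cell markers 190 to 335 and then 19.1 to 76.0, with 15 of 17 lower. The 12 macrophage markers summed to 15586 to 17113 FPKM in NC and 11880 to 13072 in D0, 3 of them higher and 3 lower. In such bulk libraries fewer cells of a type and less RNA per cell cannot be told apart. With lymphocyte marker levels as a covariate, the D0 difference of Sirt1 was -0.28 (adjusted p = 0.18) and that of Crebbp -0.01 (0.97). With the acinar level they were -0.23 (0.36) and -0.58 (0.089), and with the cell cycle level -0.41 (0.055) and -0.32 (0.25). The rise of Sirt1 to D1 AP+PBS was 0.13 (0.57) with the lymphocyte and 0.26 (0.28) with the cell cycle covariate. The D0 calls of Kat2a and Sirt3 held with each covariate tried. The lymphocyte, acinar and cell cycle levels of D0 overlapped neither those of NC nor those of D1 AP+PBS. Differences adjusted for these levels therefore cannot separate group from level.

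Between D0 and D1 AP+PBS, 3 of the 10 genes were higher (Crebbp, Sirt1, Sirt3), beside 43.0% of all genes, and 2 lower (Kat2a, Hdac2), beside 19.8%. The median of all genes was 0.19, and 0.02 with median-ratio scaling. Hdac2, the partner of Hdac1 in the same complexes, had 24.5, 19.4, 20.6, 22.1 and 21.7 FPKM in D0 and a lowest, median and highest of 14.6, 18.0 and 19.4 in D1 AP+PBS. The highest D1 library lay just below the lowest D0 library, and the log2 change was -0.31 (SE 0.10, adjusted p = 0.0097), called in all 23 alternatives. Median-ratio scaling added Hdac1 (-0.29, adjusted p = 0.049) and Kat5 (-0.22, adjusted p = 0.015) as lower. By D1 AP+PBS only Sirt3 of the 10 differed from NC in the test, beside 5.29% of all genes higher and 9.18% lower.

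**Figure D2:**
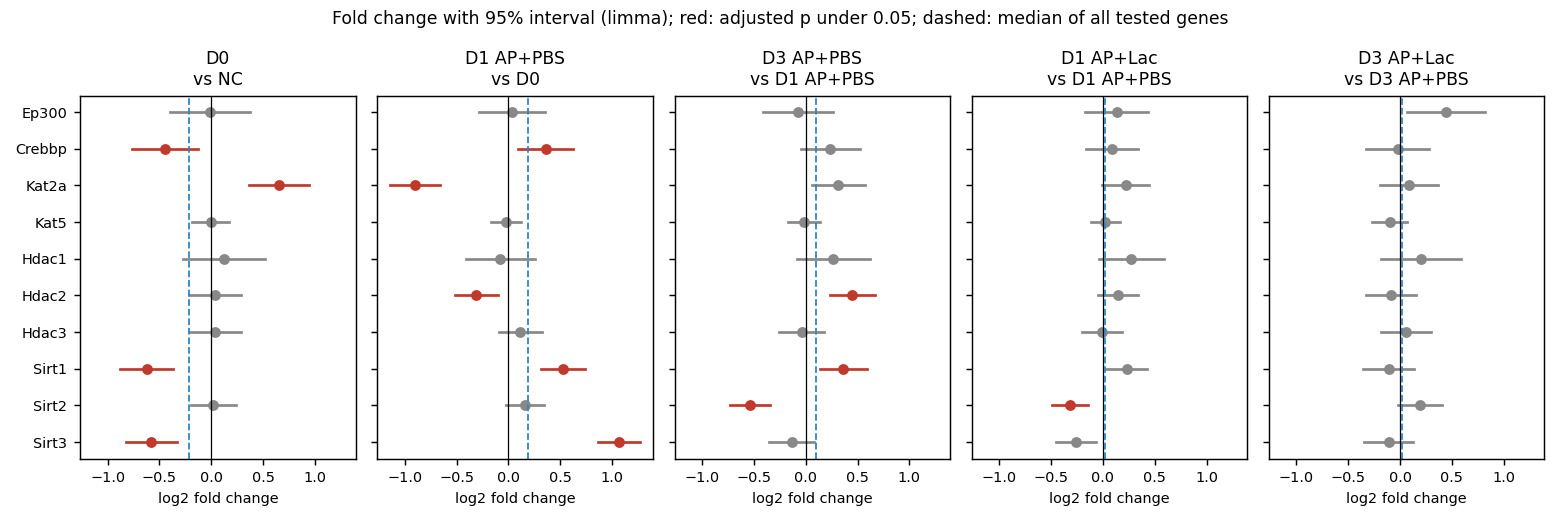
Log2 fold change (horizontal axes) of each gene in 5 comparisons, with 95% intervals from limma; red marks an adjusted p under 0.05 and the dashed line is the median of all tested genes. Kat2a, Sirt1, Sirt3 and Crebbp turn round between the first panel and the second, which share the D0 libraries; Sirt2 at D1 is the single red point among the lactate comparisons.

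From D1 AP+PBS to D3 AP+PBS, 2 of 10 were higher, beside 21.5% of all genes, and 1 lower, beside 12.8%. Hdac2 rose to 22.3, 27.3, 22.8 and 23.4 FPKM, above every D1 AP+PBS library, a log2 change of 0.45 (SE 0.11, adjusted p = 0.0029); Sirt1 is given above. Sirt2 fell: D1 AP+PBS had 42.0, 35.0, 33.9, 41.4, 32.3 and 35.5 FPKM and D3 AP+PBS 26.2, 20.8, 27.7 and 25.4. The highest D3 library lay below the lowest D1 library. The log2 change was -0.53 (SE 0.09, adjusted p = 0.00026), which is 0.64 below the median of all genes, and D3 AP+PBS was also below NC (-0.35, adjusted p = 0.025). Against NC, 1 gene was lower, beside 10.9% of all genes, and 1 higher, Sirt3 (0.35, adjusted p = 0.043), beside 10.3%. Both calls against NC were lost without the first NC library or without the third, and that of Sirt3 was lost in 14 of 19 alternatives, that of Sirt2 in 5.

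Over the same interval the summed macrophage markers went from 12592 to 20843 FPKM in D1 AP+PBS to 7538 to 11620 in D3 AP+PBS, with 11 of 12 lower, and the T and NK cell markers from 201 to 589 up to 712 to 991, with 14 of 17 higher. With the macrophage marker level as a covariate the Sirt2 change was -0.34 (adjusted p = 0.097), that of Hdac2 0.17 and that of Sirt1 0.07, none of them called. That level was 8.39 to 9.01 in D1 AP+PBS and 7.38 to 8.06 in D3 AP+PBS, without overlap. Differences adjusted for it therefore cannot separate group from level. Across the 28 libraries Sirt2 followed the macrophage level with a Pearson's r of 0.75, and with the deviations from the group means r was 0.46. Hdac1 went the other way, at -0.80 and -0.89, as did Sirt1, at -0.73 and -0.57. With the T and NK cell level Sirt2 had -0.55 and -0.51, and Sirt1 0.89 and 0.44. These correlations describe libraries that share groups and composition, and carry no test.

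**Figure D3:**
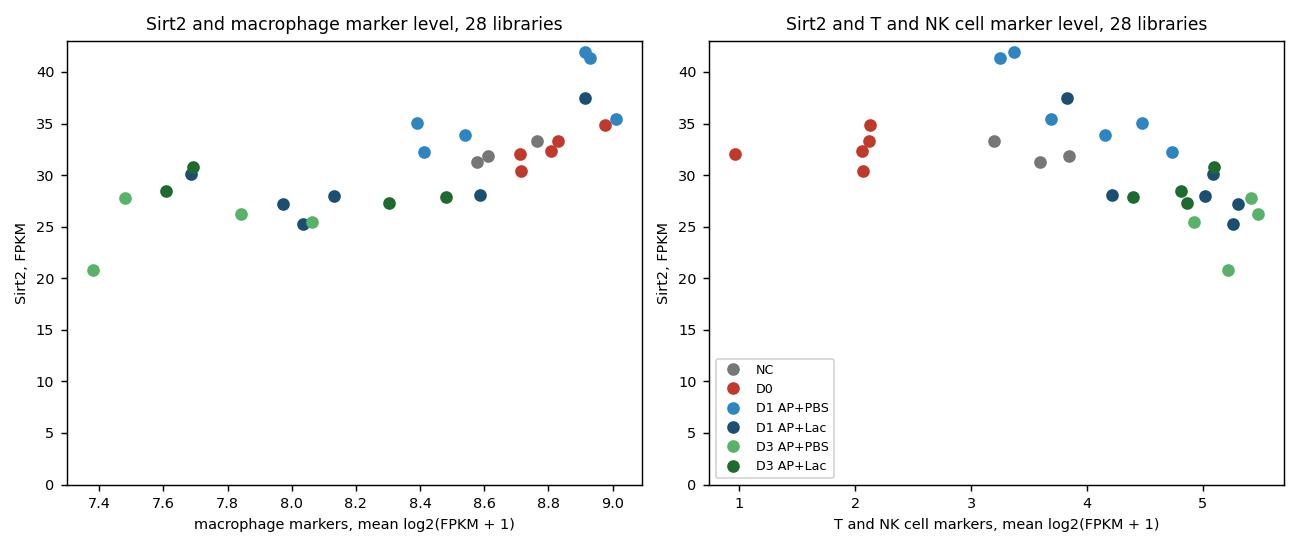
Sirt2 in FPKM (vertical axes) against the mean log2(FPKM + 1) of 12 macrophage markers (left) and 17 T and NK cell markers (right), 1 point per library, coloured by group. The libraries with most Sirt2 (42.0 and 41.4 FPKM) are D1 AP+PBS libraries at macrophage levels of 8.91 and 8.93, and the lowest (20.8) is a D3 AP+PBS library at 7.38.

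Lactate was the treatment of interest, and 1 of the 10 genes differed with it at D1. Sirt2 had 42.0, 35.0, 33.9, 41.4, 32.3 and 35.5 FPKM with PBS (36.7 ± 4.04, SD, n = 6) and 25.3, 27.99, 30.1, 27.2, 28.02 and 37.5 with lactate (29.4 ± 4.27, n = 6). Of the 6 lactate libraries 5 lay below every PBS library, and the other, at 37.5, lay within their range. The log2 fold change was -0.32 (SE 0.08, adjusted p = 0.020). That is 1 of 10 lower, beside 4.56% of all genes, and 0 of 10 higher, beside 5.16%.

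The Sirt2 call at D1 was close to its threshold. It was lost when the first lactate library (adjusted p = 0.059), the first PBS library (0.075) or the fourth (0.072) was left out, and when limma was fitted to these groups alone (0.13). Macrophage markers had a mean of 8.70 ± 0.28 on the log2 scale with PBS (summed 12592 to 20843 FPKM) and 8.22 ± 0.45 with lactate (7513 to 15899), 4 of 12 lower; T and NK cell markers had 3.94 ± 0.60 (201 to 589) and 4.78 ± 0.61 (308 to 934), 5 of 17 higher. The lactate library with 37.5 FPKM of Sirt2 also had the highest macrophage level of its group, 8.91, and the lowest T and NK cell level, 3.83. The library next to it in both levels (8.59 and 4.21) had 28.02 FPKM of Sirt2. With the macrophage level as a covariate the lactate difference was -0.22 (adjusted p = 0.15), and with the lymphocyte level -0.26 (0.055). Whether cell composition accounts for the lactate difference was not tested.

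No other writer or eraser passed at D1. Sirt3 had 5.62 ± 0.68 FPKM with lactate and 6.91 ± 0.71 with PBS, a log2 difference of -0.26 (95% interval -0.45 to -0.06, adjusted p = 0.081), and it was narrowly called (-0.30, adjusted p = 0.04997) when the second PBS library was left out. Sirt1 had 9.35 ± 1.47 against 7.80 ± 0.92 FPKM, a difference of 0.23 (0.03 to 0.43, adjusted p = 0.14), called at 0.31 (adjusted p = 0.020) without the sixth lactate library. Among writers the differences were 0.13 for Ep300 (-0.17 to 0.44), 0.09 for Crebbp (-0.16 to 0.34), 0.22 for Kat2a (-0.01 to 0.45) and 0.02 for Kat5 (-0.12 to 0.16). For Hdac1, Hdac2 and Hdac3 they were 0.27 (-0.04 to 0.59), 0.15 (-0.05 to 0.34) and -0.01 (-0.21 to 0.18).

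At D3 none of the 10 differed between lactate and PBS by limma, beside 0.192% of all genes higher and 0.184% lower; the voom fit on recovered fragments also called 0, and 1 gene had an unadjusted p under 0.05. That gene was Ep300, with 32.2, 22.2, 25.1 and 23.7 FPKM with lactate and 21.6, 12.9, 24.1 and 17.5 with PBS. The groups overlapped, and the log2 difference was 0.44 (95% interval 0.07 to 0.82, adjusted p = 0.20). Sirt2 had 30.8, 27.3, 27.9 and 28.5 FPKM with lactate against 26.2, 20.8, 27.7 and 25.4, a difference of 0.19 (-0.02 to 0.40, adjusted p = 0.32), opposite in sign to that at D1. The macrophage level was 8.02 ± 0.43 with lactate and 7.69 ± 0.32 with PBS. In simulated data, over genes drawn from all those tested, this comparison recovered 2% of log2 changes of 0.3. It recovered 34% of changes of 0.5 and 86% of changes of 1, so differences of the sizes given here could be missed.

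The difference between the lactate effects at D3 and D1 was itself tested. Sirt2 was the only one of the 10 to pass, at 0.51 on the log2 scale (SE 0.13, adjusted p = 0.017); that is 1 of 10 higher, beside 4.76% of all genes, and 0 lower, beside 5.94%. It fell to 0.35 (adjusted p = 0.078) with the macrophage level as a covariate and missed the threshold when fitted to these 4 groups alone (0.058). Sirt1 had -0.34 (adjusted p = 0.15).

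The writers and erasers were also set beside genes of their complexes and of lactate and NAD metabolism. Of 14 other lysine acetyltransferases tested, 2 were higher and 4 lower at D0, where 19.7% of all genes were higher and 41.4% lower. The coactivator Ncoa2 went from 6.83 ± 0.76 to 3.73 ± 0.44 FPKM (-0.73) and Naa60 from 36.5 ± 0.92 to 48.8 ± 5.6 (0.40). Of 10 other deacetylases and sirtuins, 1 was higher and 5 lower, with Hdac11 going from 2.08 ± 0.21 to 0.176 ± 0.11 FPKM. The split of the acetyltransferases turned with the scaling, to 4 higher and 2 lower with median-ratio scaling and 4 and 1 with quantile normalization. That of the deacetylases stayed mostly lower with median-ratio scaling (1 higher and 4 lower) and turned with quantile normalization (3 and 2). Lactate at D1 went with a rise of Hat1, which acetylates newly made histones, from 33.5 ± 9.2 to 47.1 ± 9.2 FPKM (0.50, adjusted p = 0.031), the 1 call of that list. Hdac5, a class IIa deacetylase, fell from 25.1 ± 4.0 to 19.1 ± 5.3 (-0.39, adjusted p = 0.048), a call lost with median-ratio scaling (0.062). At D3 the differences with lactate had the opposite sign, -0.29 for Hat1 and 0.27 for Hdac5, and neither was called. The effect at D3 differed from that at D1 for both (-0.79, adjusted p = 0.030, and 0.66, adjusted p = 0.034).

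SAGA and NuA4 are the complexes of Kat2a and Kat5. Of their 27 other subunits listed, 0 were higher at D0, beside 19.7% of all genes, and 11 lower, close to the 41.4% of all genes. Their median of -0.20 lay near that of all genes (-0.22). Mbtd1 fell from 7.68 ± 0.52 to 3.46 ± 0.32 FPKM and Meaf6 from 8.34 ± 0.71 to 4.72 ± 0.47. Median-ratio scaling split the 27 subunits into 10 higher and 8 lower. Of 24 corepressor subunits that bind the HDACs, 5 were higher and 10 lower (9 and 8 with median-ratio scaling), shares close to those of all genes. The NuRD subunit Mta1 fell from 17.8 ± 0.66 to 8.27 ± 0.99 FPKM, and Mbd2, which binds methylated DNA, rose from 54.3 ± 2.6 to 88.4 ± 6.9. With lactate, limma called 0 of the 24 and 0 of the 27 at D1 (3 and 3 with an unadjusted p under 0.05) and 0 of each at D3 (1 and 2); the voom fit also called 0 in each case.

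On the supply side, Slc16a3 (MCT4, which exports lactate) rose at D0 from 9.50 ± 3.5 to 40.9 ± 9.4 FPKM (2.01, adjusted p = 1.0e-05) and Ldha, which makes lactate from pyruvate, from 58.5 ± 10 to 114 ± 9.3 (0.96, adjusted p = 0.00016); both fell again by D1 AP+PBS, to 8.46 ± 2.4 and 70.4 ± 8.0. Of the 7 genes of lactate production and transport, 3 were higher and 1 lower at D0, where 19.7% of all genes were higher and 41.4% lower. Aars, an alanyl-tRNA synthetase reported as a lactyltransferase, rose at D0 from 13.8 ± 0.84 to 21.9 ± 4.8 FPKM. Acss2, which makes acyl-CoA from short acids, fell from 5.25 ± 0.91 to 2.35 ± 0.73. The list of 10 lactylation enzymes and readers had 1 higher and 3 lower, beside the same shares of all genes (19.7% and 41.4%). With median-ratio scaling it had 5 higher and 2 lower. Of 8 genes of NAD supply and use tested, 3 were higher and 1 lower at D0, beside 19.7% and 41.4% of all genes. Nampt, the rate-limiting enzyme of NAD salvage on which sirtuins draw, rose at D0 from 23.3 ± 2.9 to 51.8 ± 14 FPKM. Cd38 also rose, from 28.5 ± 7.2 to 53.2 ± 14, and Nmnat3 fell from 1.92 ± 0.20 to 0.481 ± 0.081. With lactate at D1 Nampt was at 67.6 ± 13 against 37.2 ± 24 with PBS (1.00, adjusted p = 0.030). It was the 1 call of the 8, lost by a narrow margin with median-ratio scaling (0.051).

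Among themselves the 10 genes were compared in pairs, without grouping them, and some of the pairs are given here. Over 28 libraries Kat2a and Sirt3 had a Pearson's r of -0.79, and within groups -0.24, so that this relation lay mostly between groups. Hdac2 and Sirt2 had -0.72 over all libraries and -0.67 within groups. Ep300 and Crebbp were closer within groups (0.81) than over all libraries, and Hdac1 and Hdac3 had 0.74 within groups. Within groups Hdac1 and Hdac3 also followed the cell cycle genes, each at 0.79, and the B and plasma cell markers, at 0.84 and 0.68. With the macrophage markers they had -0.89 and -0.72. All 45 pairs were computed; the libraries share depth, composition and groups, and no test was made.

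**Figure D4:**
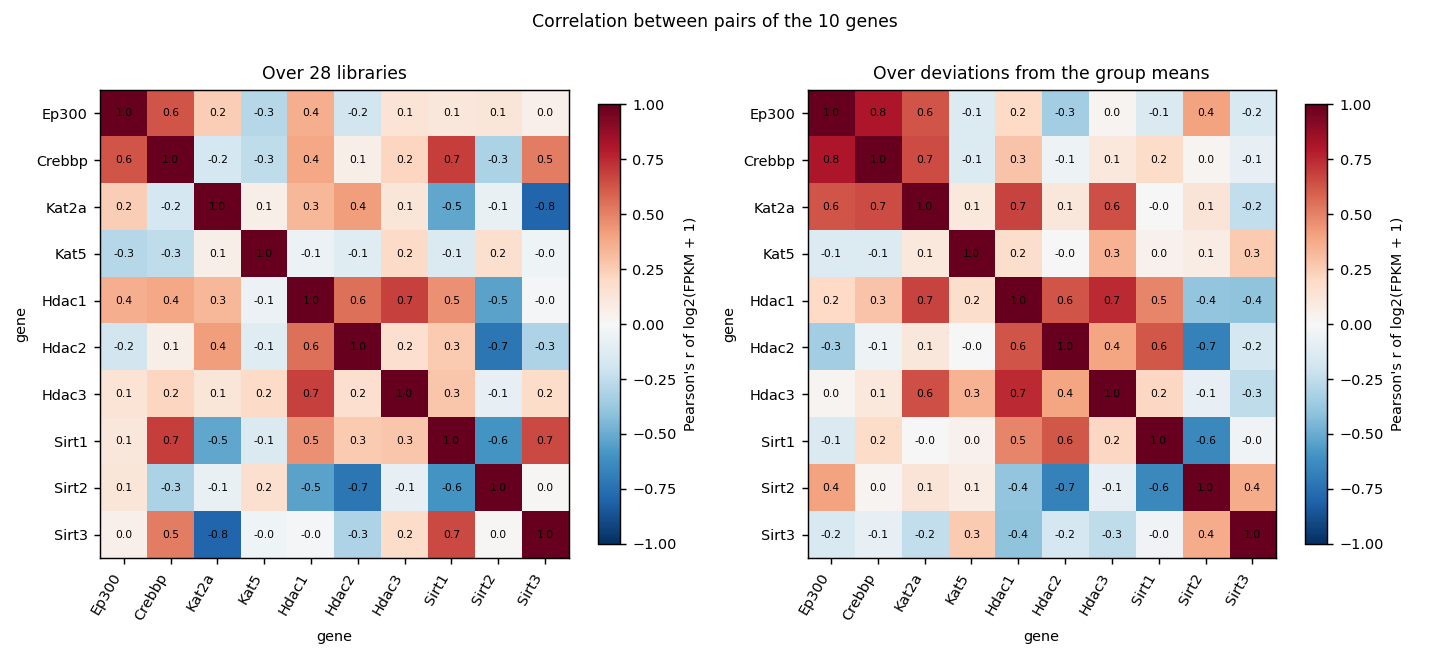
Pearson's r of log2(FPKM + 1) for each pair of the 10 genes (both axes list the genes), over the 28 libraries (left) and over deviations from the group means (right). The blue Kat2a and Sirt3 cell on the left (-0.79) is pale on the right (-0.24), and the Ep300 and Crebbp cell is darker on the right (0.81).

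Genes outside the 10 with the most similar levels over the 28 libraries were Tnrc6b (r = 0.97) for Crebbp, Rbm39 (0.96) for Sirt1, Raver1 and the NuRD subunit Mta2 (both 0.93) for Hdac1, Tcp11l2 and Klhl24 (0.93 and 0.92) for Sirt3, and Slc43a2 (0.92) for Sirt2. Hdac2 was closest to Krr1 (0.89), Ep300 to Zzef1 (0.89) and to the corepressor Ncor1 (0.88), and Hdac3 to Ppp1cc (0.86). Kat5, whose level hardly varied, had no close neighbour; the nearest was Zfpl1, at 0.55.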

How the data were processed

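RNA from sorted pancreatic macrophages was extracted with the RNeasy Micro kit, and libraries were made from 10 ng of total RNA with the VAHTS Universal V6 kit, per the labels' protocols. The authors deposited 1 table of FPKM for 25301 genes in 28 libraries; fastp and R 3.2.0 are named in the submitters' processing notes, and of the aligner, the counter and the build nothing is stated in the sources used here. Each gene's FPKM in a library came out as whole multiples of 1 fragment (within a tolerance of 0.0001 for 100% of the 23500 genes above 0 in at least 2 libraries), which gave 33273246 to 41060443 fragments per library. Counting error was taken from those fragments and covers counting only.

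Genes with at least 1 FPKM in at least 3 libraries (11960, with all 10 writers and erasers among them) were analysed as log2(FPKM + 1) with limma 3.58.1 (R 4.3.3; trend and robust), 6 group means fitted over 28 libraries, 8 contrasts and a moderated F test, 2-sided, with Benjamini-Hochberg adjustment over all genes and a threshold of 0.05. The fit was tested on simulated data. The 10 genes and all gene lists were chosen with earlier results of these data known. All 10 genes are named; from each list up to 4 called genes with the smallest p could be named, and for likeness the 2 genes with the highest Pearson's r (the result for Kat2a is not reported here). Aars1 of the lists is Aars in the table; 2 T cell markers (Trac, Trbc2) were not matched. Promoter letters come from RefSeq tables. Alternatives were the pseudocount (0.1), the filter (none, or 5 FPKM), quantile normalization, median-ratio scaling, only the groups compared, a replicate block, marker levels as covariates and each library left out. Chosen after seeing the data were voom on the recovered fragments and the macrophage covariate. Python 3.11.15 with pandas 2.3.3 made the tables.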

Additional observations from a re-analysis of the deposited data

Results flagged for a closer look

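The lactate effect on Sirt2 differed between days: the log2 difference between lactate and PBS was -0.32 at D1 and 0.19 at D3, and the test of their difference gave 0.51 (SE 0.13, adjusted p = 0.017 by limma). At D1, 5 of 6 lactate libraries lay below every PBS library; at D3 the lactate libraries had 27.3 to 30.8 FPKM and the PBS libraries 20.8 to 27.7. The macrophage marker level moved in the same directions. It went from 8.70 with PBS to 8.22 with lactate at D1, and from 7.69 to 8.02 at D3. With that level as a covariate the difference was 0.35 (adjusted p = 0.078), and whether composition accounts for it was not tested. The same test passed for 4 other acetyltransferases and deacetylases, of 14 and 10 tested, beside 4.76% of all genes higher and 5.94% lower. Their lactate differences had opposite signs on the 2 days, but only Hat1 and Hdac5 were called at D1, and none was called at D3. Hat1 was at 0.50 at D1 and -0.29 at D3 (difference -0.79), Naa60 at -0.20 and 0.28 (0.48), Hdac5 at -0.39 and 0.27 (0.66) and Hdac9 at -0.27 and 0.42 (0.69), with adjusted p of 0.030, 0.017, 0.034 and 0.0092. In 50 tests of the 10 genes, 1 for each gene in each group of 4 to 6 libraries, no library stood apart by Dixon's criterion, which chance meets in about 1 test of 20.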

How the results depend on the processing

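Over the alternatives, 2200 results of single genes were computed: 2099 kept their side of the threshold, 58 lost the call and 39 gained it. Among the 2099, a difference called in neither fit could change sign, as that of Ep300 at D0 did (-0.24 to 0.25 over 20 alternatives). The other 4 changed sign and were called as reported or in the alternative. Those 4 were Crebbp from D0 to D1 AP+PBS with the lymphocyte level as a covariate (-0.14), Hdac3 in the same comparison with the cell cycle level (-0.48), and, with the macrophage level, Hdac1 from D1 AP+PBS to D3 AP+PBS (-0.49) and in the difference of the lactate effects (0.53). The number of the 10 genes called moved by more than 1.5 times as follows. For D3 AP+PBS against NC (2 as reported) it was 1 with a pseudocount of 0.1, without a filter, with quantile normalization, median-ratio scaling, only the groups compared, the macrophage covariate or voom, and 0 with the lymphocyte covariate. For D0 against NC (4) it was 2 with quantile normalization and 2 with the acinar covariate. For D1 AP+PBS against NC (1) it was 2 with quantile normalization and 3 with the lymphocyte or the cell cycle covariate. For D3 AP+PBS against D1 AP+PBS (3) it was 1 with the lymphocyte or macrophage covariate and 5 with the cell cycle covariate. For lactate at D1 (1) it was 0 with only the groups compared and with the lymphocyte or macrophage covariate, and for lactate at D3 (0) it was 1, Hdac1, with the macrophage covariate. For the difference of the lactate effects (1) it was 0 with only the groups compared. Leaving out each library in turn gave 0 to 1 for D3 AP+PBS against NC, 0 to 2 for lactate at D1 and 1 to 2 for the difference of the effects. The causes of these moves were not tested.

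Groups share replicate numbers, but the labels do not say that a number pairs libraries, and the deviations of same-numbered libraries correlated between -0.53 and 0.61. With a replicate block the count for D3 AP+PBS against NC went from 2 to 1 (Sirt3, adjusted p = 0.067), and no other call of the 10 genes changed. With 3 to 6 libraries a group and 133 to 507 fragments of Sirt3 per library, small differences in that gene are the least certain.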
